A study of Mus musculus with 36 samples.

Results

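Distal forelimb tissue of mouse embryos carrying the Del(CBS1-5) allele was compared with distal forelimb tissue of wild type (WT) embryos. The libraries were chosen by their titles, 3 of Del(CBS1-5) and 3 of WT, which makes 6 of the 36 libraries of the series. RNA had been prepared from dissected limb pairs of single embryos at stage E12.5, the strain is labelled B6CBAF1 for every group, and poly(A) RNA was read as 50-nucleotide single ends. The series holds WT and 5 alleles made by CRISPR/Cas9 that lack binding sites of CTCF (CBS), numbered from 1 upward, at the Hoxd cluster: Del(CBS1) lacks the first site, Del(CBS1-4) sites 1 to 4 and Del(CBS1-5) sites 1 to 5. Each allele was sampled in distal and proximal forelimb with 3 libraries a group, so the Del(CBS1-4) distal libraries and the proximal libraries of WT and Del(CBS1-5) serve as the nearest comparisons. Zygosity, the number of mutant lines and whether WT embryos were littermates were not given in the sources used here.

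The Hoxd genes encode homeodomain transcription factors that lie in a row on mouse chromosome 2 and pattern the limb. In the future digits, Hoxd13 and its neighbours are driven by enhancers on the centromeric side of the cluster. In the future forearm, genes nearer to Hoxd1 are driven by enhancers on the telomeric side. CTCF is a DNA-binding protein that stops cohesin as it extrudes chromatin loops, and its sites inside the cluster lie between these regulatory domains.

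The tissue labels were checked against markers. Hoxd13 was at 917 to 1130 CPM (counts scaled to library size) in distal WT and at 33.9 to 90.3 CPM in proximal WT. The mean log2 CPM of 34 skeletal muscle genes was 0.62 to 0.81 in distal WT, 0.12 to 0.58 in distal Del(CBS1-5) and 5.45 to 5.53 in proximal WT. The 6 libraries held 13879130 to 16210649 counts, within 11062069 to 17727891 for the series. In each genotype 2 embryos were female and 1 male by Xist and Y-linked RNA, with library 3 of WT and library 2 of Del(CBS1-5) from males. The labels give no positions for the deleted sites, so no gene level was used to check the deletion itself.

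Few genes passed the test between distal Del(CBS1-5) and WT limbs, and their number varied widely with the setting. Of 15361 genes tested, 10 passed edgeR's quasi-likelihood test at a Benjamini-Hochberg adjusted p under 0.05, which is 0.0651% of them, with 1 higher (0.00651%) and 9 lower (0.0586%) in Del(CBS1-5). Below, such genes are described as called. At an unadjusted p under 0.05 there were 917 higher (5.97%) and 1091 lower (7.1%) genes, 13.1% in all. The count of called genes depended on single libraries: it was 320 without WT library 3, 114 without Del(CBS1-5) library 3, 6 without WT library 1, 3 without WT library 2 or Del(CBS1-5) library 1, and 2 without Del(CBS1-5) library 2. DESeq2 called 126 genes, 40 higher and 86 lower, and edgeR with no filter on low counts called 633.

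Of the 9 Hoxd genes in the count table, 8 were tested and 1, Hoxd10, was called, where 0.0651% of all genes tested were. Hoxd1 had 0 counts in all 6 libraries. The start regions of 3 genes are shown because they span the outcome: Hoxd13, the most abundant Hoxd RNA per length, Hoxd10, the called gene, and Hoxd4, whose fitted level was the smallest percentage of WT. Each window is RefSeq sequence of build GRCm38.p6 on the plus strand, from 250 bases before to 50 after the annotated start, at chr2:74667975-74668274 for Hoxd13, chr2:74691641-74691940 for Hoxd10 and chr2:74721728-74722027 for Hoxd4. Capitals mark TATAAA, the core of a TATA box, and AGGNGGC, letters from the middle of the CTCF motif, on either strand, with overlapping matches joined.
Hoxd13: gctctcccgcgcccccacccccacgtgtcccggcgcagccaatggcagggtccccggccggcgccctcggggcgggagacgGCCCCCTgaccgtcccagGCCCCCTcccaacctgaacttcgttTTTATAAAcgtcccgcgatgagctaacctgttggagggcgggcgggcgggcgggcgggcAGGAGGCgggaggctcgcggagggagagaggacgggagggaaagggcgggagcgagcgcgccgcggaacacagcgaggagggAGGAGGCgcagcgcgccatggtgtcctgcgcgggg
Hoxd10: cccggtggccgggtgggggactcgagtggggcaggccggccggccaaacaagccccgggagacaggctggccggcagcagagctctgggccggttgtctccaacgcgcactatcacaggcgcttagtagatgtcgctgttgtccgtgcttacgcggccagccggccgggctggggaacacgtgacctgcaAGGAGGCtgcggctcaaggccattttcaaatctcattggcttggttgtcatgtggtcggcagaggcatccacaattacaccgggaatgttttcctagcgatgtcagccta
Hoxd4: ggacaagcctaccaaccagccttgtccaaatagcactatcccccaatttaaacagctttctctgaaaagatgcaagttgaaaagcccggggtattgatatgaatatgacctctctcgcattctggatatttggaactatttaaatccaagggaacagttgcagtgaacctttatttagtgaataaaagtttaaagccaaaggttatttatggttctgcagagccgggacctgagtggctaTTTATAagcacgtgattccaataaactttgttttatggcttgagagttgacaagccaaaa
The Hoxd13 window holds 2 overlapping TATAAA matches, from -126 to -119 relative to the start, and 4 AGGNGGC matches. The Hoxd10 window holds 1 AGGNGGC match, at -60 to -54. The Hoxd4 window holds 1 TATAAA match, on the minus strand at -10 to -5. Of 32851 RefSeq windows of this length, 13.62% hold TATAAA and 29.35% hold AGGNGGC, and a match is given only as a description of these letters.

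Hoxd13, required for digit formation, was at 917, 1130 and 1026 CPM in the 3 WT libraries and at 977, 945 and 940 CPM in the 3 Del(CBS1-5) libraries. The ranges overlapped and the log2 fold change of Del(CBS1-5) over WT was -0.11 ± 0.08 (SE, n = 3 a group, 95% interval -0.28 to 0.05, edgeR adjusted p = 0.551). Hoxd12, its neighbour, was at 395, 408 and 432 CPM in WT and at 355, 332 and 358 CPM in Del(CBS1-5). All mutant values lay below all WT values, yet Hoxd12 was not called (log2 fold change -0.25 ± 0.09, 95% interval -0.45 to -0.06, edgeR adjusted p = 0.274). Hoxd11 was at 71.9, 57.8 and 72.6 CPM in WT and at 58.3, 59.0 and 58.2 CPM in Del(CBS1-5). Its lowest WT library lay below all mutant libraries, and its log2 fold change was -0.22 ± 0.11 (95% interval -0.45 to 0.01).

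Hoxd10 (ENSMUSG00000050368, chr2:74691924-74695105 in the deposited mm10 coordinates, 2 exons) was at 113, 117 and 104 CPM in WT and at 88.2, 79.5 and 88.8 CPM in Del(CBS1-5). The mean was 111 ± 6.66 CPM (SD, n = 3) in WT and 85.5 ± 5.21 CPM (SD, n = 3) in Del(CBS1-5). All 3 mutant libraries lay below all 3 WT libraries, and the fitted level fell to 76.4% of WT (log2 fold change -0.39 ± 0.07 SE, edgeR adjusted p = 0.0323). The size of this difference was steady while its call was not. Over 16 alternative settings the log2 fold change ran from -0.44 to -0.34, and Hoxd10 was called in 7 of them, with adjusted p from 3.629e-06 to 0.476. The call was lost without WT library 1 or 2, and without Del(CBS1-5) library 1 or 2, with adjusted p of 0.0836, 0.21, 0.116 and 0.268 in that order. It was also lost in a fit of these 6 libraries alone (adjusted p = 0.476) and with the skeletal muscle score as a covariate (adjusted p = 0.0716). The annotated exons of Hoxd10 overlap those of the transcript Gm28309 on the same strand over 104 bases, so some reads could belong to either. The same limit holds for Hoxd11, whose exons overlap those of Gm28309 on the same strand over 455 bases.

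The genes on the Hoxd1 side of Hoxd10 were sparse in this tissue. Hoxd9 was at 29.1, 19.6 and 23.8 CPM in WT and at 19.5, 16.6 and 19.04 CPM in Del(CBS1-5), with a log2 fold change of -0.41 ± 0.20 (95% interval -0.83 to 0.01). Its groups did not overlap, by a margin narrower than the spread inside either group. Hoxd8 was at 9.44, 2.59 and 7.30 CPM in WT and at 6.28, 8.33 and 5.13 CPM in Del(CBS1-5), with an interval of -0.83 to 0.86 on the log2 scale. WT library 2 was lowest for Hoxd8 and the sign of its difference turned negative without that library. Hoxd4 was at 7.45, 2.59 and 4.83 CPM in WT and at 2.12, 2.13 and 1.46 CPM in Del(CBS1-5), from 20 to 109 counts a library. Its fitted level in the mutant was 38.3% of WT and the groups did not overlap, but the spread inside WT was wide and the gene was not called (log2 fold change -1.38 ± 0.44, 95% interval -2.31 to -0.46, edgeR adjusted p = 0.22). Hoxd3 had 3 to 25 counts a library and a log2 fold change of -1.33 ± 0.67 (95% interval -2.74 to 0.08). The Hoxd3 and Hoxd4 annotations share exonic bases, so their counts are uncertain.

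Together, in 5 of the 8 tested Hoxd genes every mutant library lay below every WT library, and in none did all lie above, where 6.13% of all genes tested lay below and 8.34% above. The separation was very narrow for Hoxd3 and Hoxd9. For Hoxd3 the closest libraries were at 0.489 CPM in WT and 0.482 CPM in Del(CBS1-5), at few counts. For Hoxd9 they were at 19.64 and 19.47 CPM. The median log2 fold change of the 8 was -0.32, beside -0.0034 over all genes tested. The plot of Hoxd levels by library gives these values with those of distal Del(CBS1-4).

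**Figure D1:**
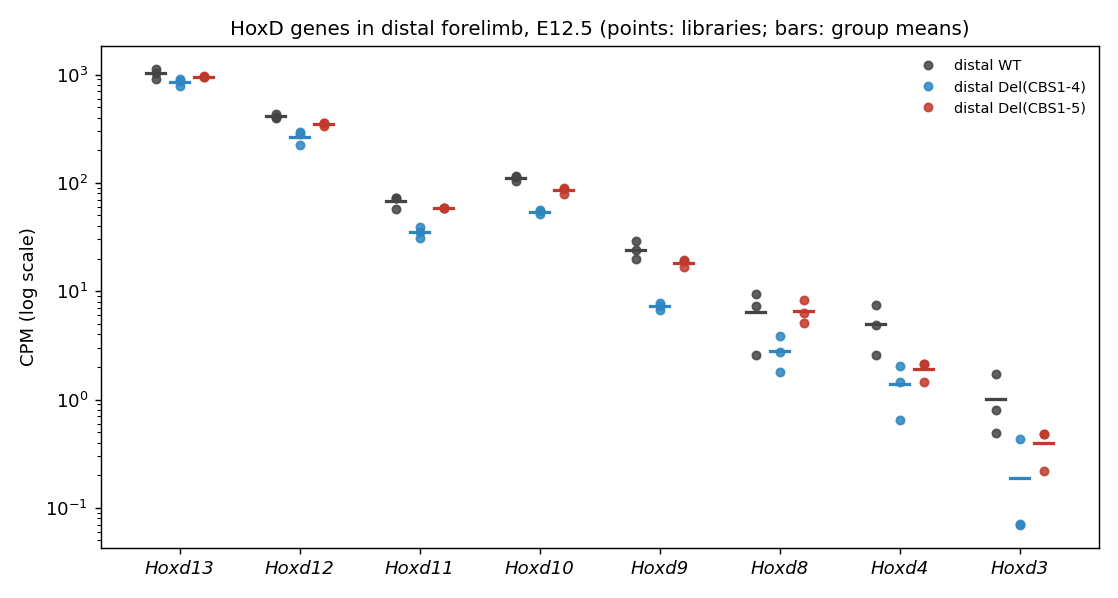
CPM of 8 Hoxd genes on a log axis in distal forelimb libraries of WT, Del(CBS1-4) and Del(CBS1-5), with a point for each library and a bar for each group mean. Hoxd10 is at 104 to 117 CPM in WT, 79.5 to 88.8 CPM in Del(CBS1-5) and 51.6 to 56.4 CPM in Del(CBS1-4).

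On the scale of FPKM, which divides by gene length and so allows genes to be compared, the order of the Hoxd RNAs was the same in WT and Del(CBS1-5) for the 5 most abundant. Hoxd13 stood first, with a mean FPKM of 283 ± 25.5 in WT and 265 ± 9.26 in Del(CBS1-5) (SD, n = 3). Hoxd12 followed at 111 ± 4.49 and 94.4 ± 3.43 FPKM. Hoxd10 was at 40.6 ± 2.56 and 30.5 ± 1.58 FPKM, and Hoxd11 at 32.8 ± 5.67 and 28.1 ± 1.161 FPKM. Hoxd9 was at 7.58 ± 1.58 and 5.76 ± 0.502 FPKM. Hoxd10 and Hoxd11 were the closest neighbours in this order, and in each group their means differed by less than the sum of their standard deviations. As a share of all Hoxd counts, Hoxd13 made up 59.4%, 65.0% and 61.4% in WT and 64.9%, 65.5% and 63.9% in Del(CBS1-5). Hoxd10 made up 7.29%, 6.72% and 6.21% in WT and 5.85%, 5.51% and 6.03% in Del(CBS1-5).

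Genes that flank the cluster on either side were measured as neighbours of the deleted sites. None of 21 tested was called, with a median log2 fold change of 0.04, and 4 were higher and 0 lower at an unadjusted p under 0.05, where 5.97% of all genes tested were higher and 7.1% lower. Evx2, a homeobox gene next to Hoxd13, was at 108, 138 and 107 CPM in WT and at 104, 104 and 114 CPM in Del(CBS1-5). Lnpk, beyond Evx2, was at 98.2, 138 and 98.1 CPM in WT and at 102, 109 and 98.5 CPM in Del(CBS1-5). Both overlapped between the groups, with WT library 2 the highest value of each. Mtx2, a mitochondrial import gene on the Hoxd1 side, was at 51.8 to 56.2 CPM in WT and 58.2 to 63.0 CPM in Del(CBS1-5), a log2 fold change of 0.14 ± 0.06 (edgeR adjusted p = 0.356). Nfe2l2, which encodes the oxidative stress factor NRF2, was at 41.4, 35.3 and 34.2 CPM in WT and at 45.7, 48.0 and 45.0 CPM in Del(CBS1-5). Its groups did not overlap, and it was not called (log2 fold change 0.31 ± 0.07, edgeR adjusted p = 0.0959).

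Distal Del(CBS1-5) was compared with the preceding allele, distal Del(CBS1-4), in the fit that also holds WT. The alleles were sampled in different embryos, so loss of the fifth site cannot be told apart from other differences between those embryos. Hoxd12, Hoxd11, Hoxd10 and Hoxd9 were higher in Del(CBS1-5), which lacks more sites. Of the 8 Hoxd genes tested, these 4 were called higher and 0 lower, where 7.74% of all genes tested were called higher, 8.94% lower and 16.7% in either direction. Hoxd9 was at 6.71, 7.77 and 7.32 CPM in Del(CBS1-4), below the lowest Del(CBS1-5) library at 16.6 CPM, and rose by 1.33 ± 0.22 on the log2 scale (edgeR adjusted p = 0.00219). Hoxd11 was at 35.4, 39.0 and 30.7 CPM in Del(CBS1-4) and rose by 0.74 ± 0.11 (edgeR adjusted p = 0.00157). Hoxd10 was at 51.6, 56.4 and 54.6 CPM in Del(CBS1-4) and rose by 0.65 ± 0.07 (edgeR adjusted p = 0.000151). Hoxd12 was at 284, 294 and 223 CPM in Del(CBS1-4) and rose by 0.38 ± 0.09 (edgeR adjusted p = 0.0129). In these 4 genes, picked by their call, no library of one allele reached the range of the other, which adds nothing to the call. The share of all genes tested without overlap was not counted for this comparison. The other Hoxd genes were not called: the 95% interval of the log2 difference was 0.00 to 0.33 for Hoxd13, 0.32 to 2.14 for Hoxd8, -0.57 to 1.48 for Hoxd4 and -0.80 to 2.87 for Hoxd3. Hoxd8 was called higher with DESeq2, in a fit of the compared groups alone, with no filter on low counts and without Del(CBS1-5) library 3, and Hoxd13 with no filter. The comparisons with WT and with Del(CBS1-4) share the Del(CBS1-5) libraries and are set side by side in the plot of fold changes.

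**Figure D2:**
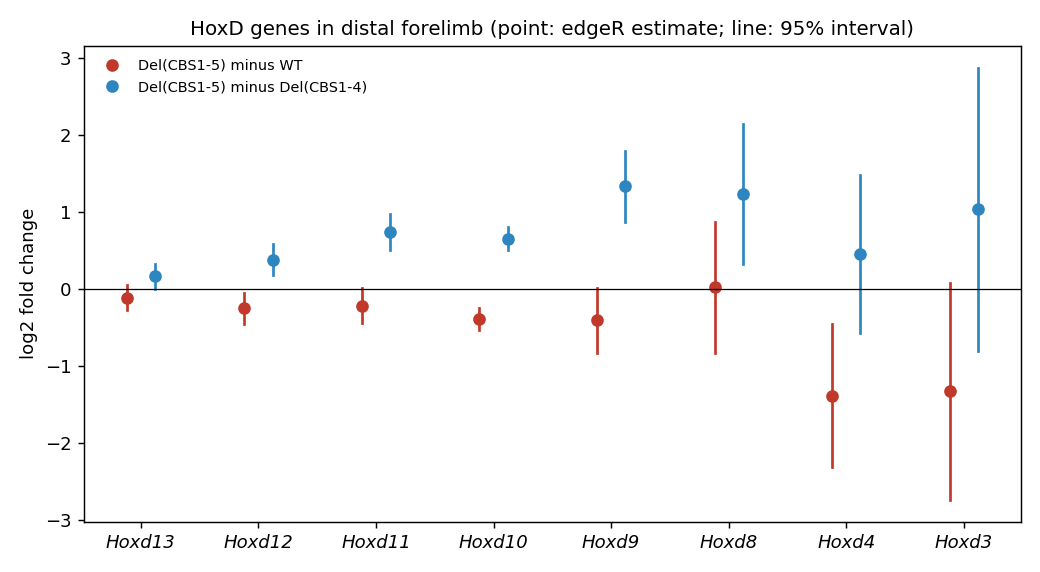
Log2 fold change of 8 Hoxd genes in distal forelimb for Del(CBS1-5) minus WT and Del(CBS1-5) minus Del(CBS1-4), with lines for 95% intervals from edgeR. Hoxd10 lies at -0.39 against WT and at 0.65 against Del(CBS1-4).

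Tissue markers moved with the comparison to Del(CBS1-4). The mean log2 CPM of the muscle genes was 0.12 to 0.58 in Del(CBS1-5) and 0.87 to 2.06 in Del(CBS1-4), with Ckm at 0 counts in both groups and Myf6 at 0 in Del(CBS1-5). The sum of 27 cartilage genes was 2523 to 3253 CPM in Del(CBS1-5) and 3777 to 4532 CPM in Del(CBS1-4), with Ucma at 0 counts in the latter group. The sum of 15 erythroid genes was 3415 to 6405 CPM in Del(CBS1-5) and 2176 to 2669 CPM in Del(CBS1-4), with no member at 0. Of the cartilage list, 17 of 25 tested genes were called lower and 0 higher, and of the erythroid list 10 of 15 were called higher and 1 lower. Of all genes tested, 8.94% were called lower and 7.74% higher. Other lists shifted too. Called lower were 12 of 20 tendon and connective tissue, 11 of 14 joint interzone and 9 of 13 Hedgehog genes, with 0 higher. Of 23 proliferation genes, 10 were called higher and 0 lower. Of 22 distal mesenchyme genes, 9 were called higher and 2 lower. Of 21 genes flanking the Hoxd cluster, 6 were called higher and 0 lower, so called rises were not confined to the cluster. With the muscle score as a covariate the called genes fell from 2563 to 89, and Hoxd11, Hoxd10 and Hoxd9 were among them while Hoxd12 was not. The count was 701 without Del(CBS1-5) library 1, 828 without Del(CBS1-5) library 2, 1474 without Del(CBS1-4) library 1 and 1038 without Del(CBS1-4) library 3. Hoxd11, Hoxd10 and Hoxd9 were called in each of these fits, and Hoxd12 lost its call without Del(CBS1-5) library 1 or Del(CBS1-4) library 3. In bulk tissue, fewer cells of a type and less RNA per cell cannot be told apart, and the part of tissue composition in these differences was not tested. Among the genes named by the size of their rise were Hemgn, Rhd and Hbb-bh1, all red cell genes, with log2 fold changes of 3.84, 3.07 and 2.90. Those named by the size of their fall were Pcna-ps2, Rps15a-ps8, Nudc-ps1 and Eif3j2, with log2 fold changes of -6.17, -5.73, -5.70 and -5.17.

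Whether the effect of the allele differed between distal and proximal tissue was tested as an interaction over all 36 libraries. The fit took distal and proximal libraries as unpaired. No gene of 16292 was called by edgeR (0%) or by DESeq2, and 966 (5.93%) had an unadjusted p under 0.05, 453 higher (2.78%) and 513 lower (3.15%) in distal tissue. With no filter on low counts edgeR called 94. A fit that paired same-numbered distal and proximal libraries called 0. For Hoxd10, proximal WT libraries were at 133, 131 and 143 CPM and proximal Del(CBS1-5) libraries at 123, 136 and 118 CPM, which overlap. The Hoxd10 effect in distal minus that in proximal tissue was -0.26 ± 0.11 on the log2 scale (edgeR adjusted p = 0.794), so a difference between tissues was not established. Hoxd9 was at 66.5 to 67.9 CPM in proximal WT and 43.2 to 47.7 CPM in proximal Del(CBS1-5). Hoxd4 was at 20.0 to 23.5 CPM in proximal WT and 8.34 to 11.1 CPM in proximal Del(CBS1-5). Both genes were more abundant there than in distal tissue, and the difference of effects was 0.16 ± 0.22 for Hoxd9 and -0.21 ± 0.46 for Hoxd4, with adjusted p of 0.968 and 0.986.

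Outside the cluster, 9 genes were called against WT, of which Fignl1, Zbtb20, Pced1a and Pcna-ps2 met the naming rule. The other 5 are gene models named here after their values were seen, to complete the set. Fignl1 (chr11:11800288-11808962), an AAA-type ATPase of DNA repair, was the only called gene that rose. It was at 58.9, 64.8 and 66.3 CPM in WT and at 94.1, 109 and 77.7 CPM in Del(CBS1-5), a log2 fold change of 0.55 ± 0.09 (edgeR adjusted p = 0.0254). Its proximal libraries were at 48.8 to 52.5 CPM in WT and 65.6 to 85.5 CPM in Del(CBS1-5), again without overlap. How many of all genes lacked overlap in proximal tissue was not counted. Zbtb20 (chr16:42907645-43642602), a zinc finger repressor, was at 15.5, 22.6 and 16.2 CPM in WT and at 10.3, 9.09 and 12.3 CPM in Del(CBS1-5), a log2 fold change of -0.79 ± 0.14 (edgeR adjusted p = 0.0323). Its proximal libraries overlapped, at 19.03 to 22.04 CPM in WT and 17.0 to 20.7 CPM in Del(CBS1-5). Pced1a (chr2:130417683-130424687), which encodes a PC-esterase domain protein, was at 56.1, 47.7 and 45.0 CPM in WT and at 31.4, 34.0 and 33.8 CPM in Del(CBS1-5), a log2 fold change of -0.60 ± 0.09 (edgeR adjusted p = 0.0215). Its annotated exons overlap those of Vps16 on the opposite strand over 109 bases. Fignl1 was called in 8 of 16 alternatives, Pced1a in 9 of 16 and Zbtb20 in 8 of 14, with the same direction in all of them. Each lost its call without Del(CBS1-5) library 1 or 2 or without WT library 2, and Fignl1 and Pced1a also without WT library 1.

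Among the called genes, 3 processed pseudogenes, which are intronless gene copies, had the largest falls. Pcna-ps2 (chr19:9283380-9284160) was at 46.2, 44.3 and 21.7 CPM in WT and at 0.410, 0.826 and 0.586 CPM in Del(CBS1-5), a log2 fold change of -5.93 ± 0.44 (edgeR adjusted p = 1.116e-06). It was called in all 16 alternatives. Its transcript is 99.2% identical over 781 bases to that of Pcna, the sliding clamp of DNA replication on chromosome 2, so 50-nucleotide reads can be exchanged between them. Pcna itself was at 106, 104 and 143 CPM in WT and at 180, 173 and 163 CPM in Del(CBS1-5), and was not called (log2 fold change 0.53 ± 0.11, edgeR adjusted p = 0.0773). The sum of both was at 152, 149 and 165 CPM in WT and at 180, 174 and 164 CPM in Del(CBS1-5), so the groups overlapped once copy and parent were added.

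Gm13328 (chr2:20235045-20236064) is 98.4% identical over 1019 bases to Mrps5, which encodes a protein of the mitochondrial ribosome. It had 138 counts in the WT libraries together and 3 in the Del(CBS1-5) libraries, a ratio of 43.7 with a 95% exact counting interval of 14.6 to 214. Mrps5 was not called, at 42.5, 42.3 and 46.4 CPM in WT and 53.0, 54.9 and 51.3 CPM in Del(CBS1-5) (log2 fold change 0.27 ± 0.05, edgeR adjusted p = 0.0773), and the sum of both was without overlap at 45.8 to 48.7 and 51.3 to 55.1 CPM. Gm4864 (chr12:77623549-77625009) is 94.3% identical over 1470 aligned bases to Hdac1, a histone deacetylase gene. It had 199 and 150 counts in WT libraries 1 and 2, 1 count in WT library 3 and 1 count in the Del(CBS1-5) libraries together, so the WT group itself was split and the ranges touched those of the mutant. Gm4864 was not called in 8 of 15 alternatives, among them the fits without WT library 1 or 2 or without Del(CBS1-5) library 1 or 2. Hdac1 was at 33.1, 31.2 and 63.4 CPM in WT and at 65.8, 65.5 and 65.8 CPM in Del(CBS1-5): WT library 3, with 1 count of the copy, was close to the mutants in its parent. In proximal tissue Gm13328 and Gm4864 had 0 counts in all 3 Del(CBS1-5) libraries, which makes the proximal WT group at least 35.2-fold and 79.9-fold higher against a floor of 3 counts over the group. Proximal WT was split for Gm4864 as well, at 9.55, 8.77 and 0 CPM, so its bound rests on libraries 1 and 2. Intervals and floors cover counting error only.

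The last 3 called genes are transcripts of unassigned function. AA465934 (chr11:83291699-83294632), which overlaps a snoRNA gene, was at 36.9, 21.9 and 20.9 CPM in WT and at 3.62, 3.86 and 4.17 CPM in Del(CBS1-5), a log2 fold change of -2.78 ± 0.41. Gm30238 (chr12:112690986-112693588) was at 2.29 to 4.05 CPM in WT and 0.275 to 1.09 CPM in Del(CBS1-5), and 2810029C07Rik (chr12:111572317-111574402) at 4.95 to 6.15 CPM in WT and 1.84 to 2.62 CPM in Del(CBS1-5). All 3, picked by their distal call, were lower in every Del(CBS1-5) library than in any WT library, and the same held in proximal tissue. For proximal tissue the share of all genes without overlap was not counted. The call of 2810029C07Rik was lost in 7 of 16 alternatives, among them the fits without WT library 1 or 2 or without Del(CBS1-5) library 1 or 2. That of Gm30238 was lost in 7 of 15, among them without WT library 1 or 2 or without Del(CBS1-5) library 2, and that of AA465934 in 2 of 16, without Del(CBS1-5) library 1 or 2. The plot of called genes shows distal and proximal libraries together.

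**Figure D3:**
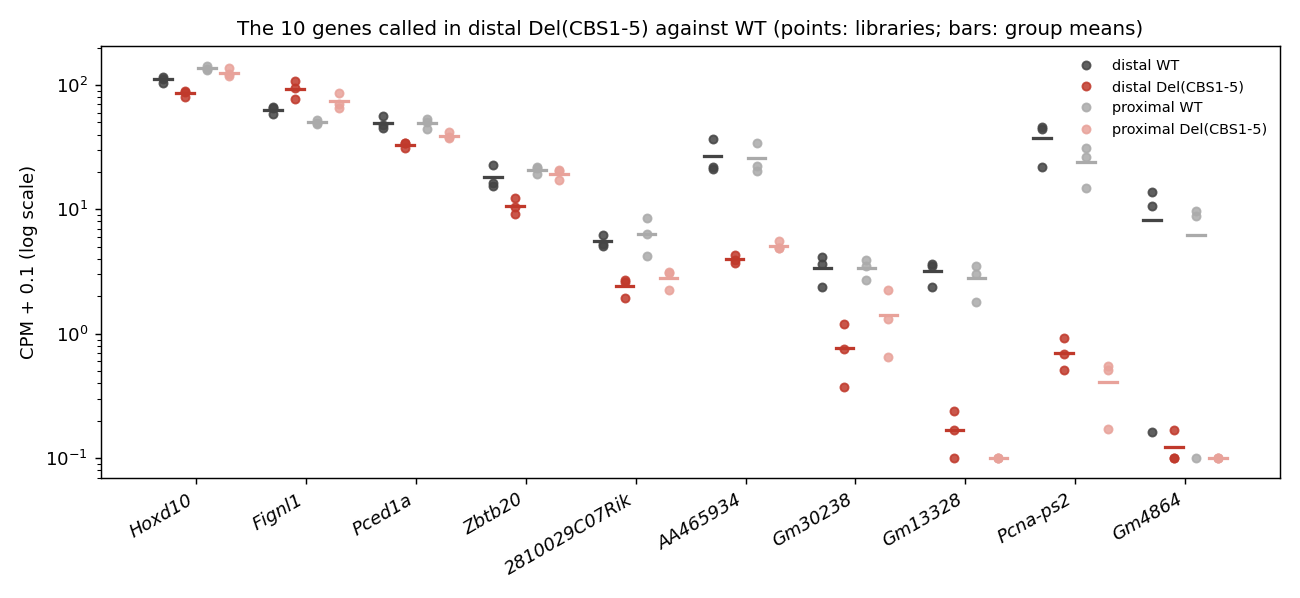
CPM + 0.1 on a log axis of the 10 genes called in distal Del(CBS1-5) against WT, with a point for each library and a bar for each group mean, in distal and proximal tissue. Pcna-ps2 is at 21.7 to 46.2 CPM in distal WT and 0.410 to 0.826 CPM in distal Del(CBS1-5), and Gm4864 is split inside WT.

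Genes elsewhere on chromosome 2, which carries the deleted sites, were compared with those on other autosomes. Whether chromosome 2 has the same strain origin in the WT and mutant embryos was not given in the sources used here, beyond the shared strain label. Of 1242 tested genes on chromosome 2, 3 were called (Gm13328, Hoxd10 and Pced1a) and 211 (17.0%) had an unadjusted p under 0.05, beside 12.7% over the other autosomes, whose highest share was 16.4%, on chromosome 4. At an unadjusted p under 0.001 there were 24 (1.93%) on chromosome 2 and 0.517% on the others, with 1.396% on chromosome 12 the next highest. The stretch 40 to 60 Mb beyond Hoxd10 toward higher coordinates held 13 of the 24, and 62 of its 214 tested genes (28.97%) were at an unadjusted p under 0.05. Its genes went both ways, and Pced1a was the only one in it that was called. Polr1b, a subunit of RNA polymerase I, had a log2 fold change of 0.53 ± 0.10 (edgeR adjusted p = 0.0592). Trmt6, a tRNA methyltransferase subunit, had 0.36 ± 0.08 (edgeR adjusted p = 0.102), and Zfp661, a zinc finger gene, had -0.71 ± 0.15 (edgeR adjusted p = 0.0868). Pcna and Mrps5, the parents of copies described above, lie in this stretch. At the same distance toward lower coordinates, 22 of 230 genes (9.57%) were at an unadjusted p under 0.05, and Gm13328 was the called gene. The excess was not limited to the stretch with the highest share. The share was 20.6% at 80 to 100 Mb, 19.7% at 0 to 20 Mb and 18.3% at 100 to 120 Mb and at -80 to -60 Mb. The remaining stretches of 20 Mb were at 9.20% to 12.1%.

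**Figure D4:**
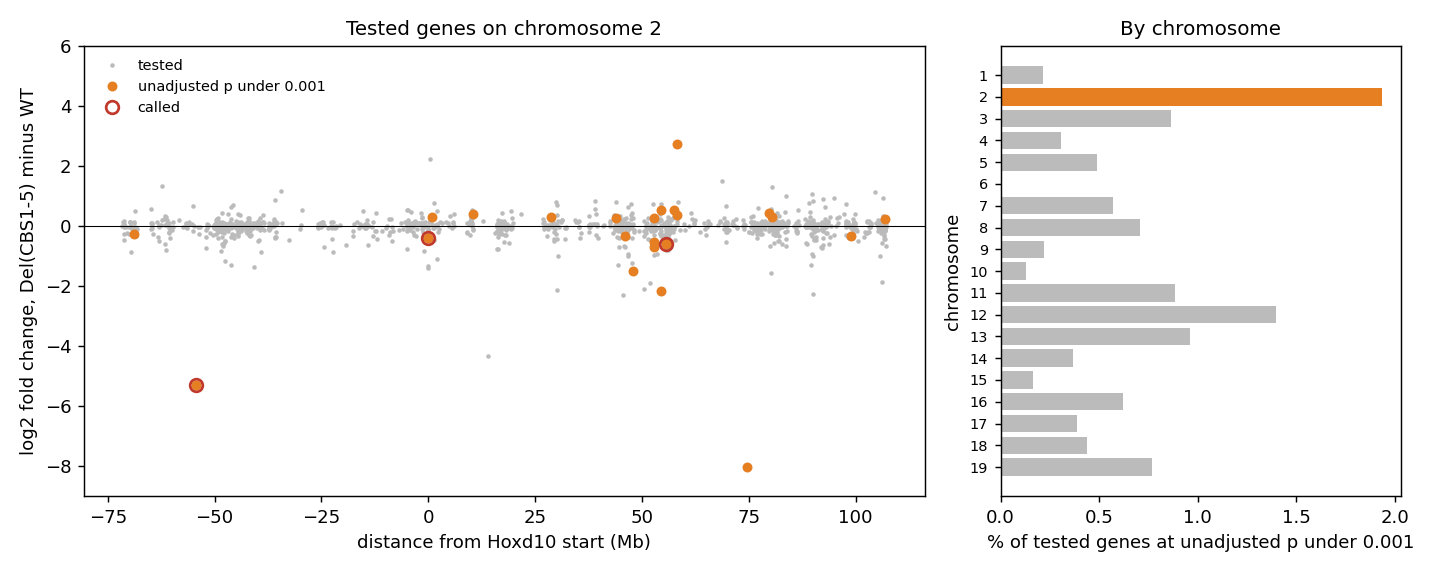
Left, log2 fold change of distal Del(CBS1-5) minus WT for genes tested on chromosome 2 against distance from the Hoxd10 start in Mb, with genes at an unadjusted p under 0.001 filled and called genes ringed. Right, percent of tested genes at an unadjusted p under 0.001 on each autosome, which is 1.93% on chromosome 2 and 1.396% on chromosome 12.

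Limb programmes were followed with gene lists, and outside the HoxD list no member of any list was called against WT. Of the HoxA genes, which act with Hoxd genes in the limb, 15 were tested with a median log2 fold change of 0.06. Hoxa13, the digit partner of Hoxd13, was at 167, 178 and 171 CPM in WT and at 191, 186 and 187 CPM in Del(CBS1-5), a log2 fold change of 0.12 ± 0.06 (edgeR adjusted p = 0.408). Hoxa11 varied most inside a group, from 11.3 to 52.4 CPM in WT, and overlapped with 25.2 to 49.5 CPM in Del(CBS1-5). Of 22 distal mesenchyme genes 1 was higher and 0 lower at an unadjusted p under 0.05, beside 5.97% and 7.1% of all genes tested. The gene was Hand2, a transcription factor of the posterior limb bud, at 128 to 172 CPM in WT and 178 to 188 CPM in Del(CBS1-5) (log2 fold change 0.27 ± 0.09, edgeR adjusted p = 0.251). The proximal limb factors had a median of -0.03 over 18 genes.

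Among signalling lists, the median log2 fold change was farthest from that of all genes for the Hedgehog list. It was -0.0049 for BMP and GDF genes, -0.0079 for Wnt, -0.0065 for FGF and apical ridge, -0.04 for retinoic acid and -0.16 for Hedgehog genes, of which 3 of 13 were above 0. The joint interzone list had a median of -0.22 over 14 genes, with 1 above 0. Chrd, a secreted BMP antagonist, was lower in every Del(CBS1-5) library, at 7.02 to 8.28 CPM beside 9.71 to 12.03 CPM in WT, and was not called (log2 fold change -0.53 ± 0.15, edgeR adjusted p = 0.177). Of 14 CTCF and cohesin genes tested the median was 0.03, and Ctcf was at 250, 272 and 262 CPM in WT and 294, 278 and 261 CPM in Del(CBS1-5). Of 27 Polycomb genes the median was -0.02. Phc3, a subunit of Polycomb repressive complex 1, was at 75.2, 83.4 and 77.4 CPM in WT and at 58.7, 66.5 and 64.4 CPM in Del(CBS1-5), and was not called (log2 fold change -0.33 ± 0.07, edgeR adjusted p = 0.0773).

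For the cartilage and hypoxia genes named here except Col10a1, and for the erythroid sum, Del(CBS1-5) library 3 stood with WT. The median log2 fold change was -0.19 over 25 cartilage genes, of which 5 were lower and 1 higher at an unadjusted p under 0.05. Acan, the main cartilage proteoglycan, was at 25.4, 33.5 and 15.2 CPM in WT and at 9.70, 6.89 and 22.8 CPM in Del(CBS1-5), so that library 3 of the mutant lay inside the WT range. Matn4, a cartilage matrix protein gene, was at 67.1, 74.4 and 30.004 CPM in WT and at 22.1, 22.2 and 47.1 CPM in Del(CBS1-5), with the same exception. Col10a1, a collagen of hypertrophic cartilage, was higher in every mutant library, at 3.52 to 3.86 CPM beside 2.17 to 2.39 CPM in WT (log2 fold change 0.68 ± 0.21, edgeR adjusted p = 0.205).

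The erythroid median was 0.40 over 15 genes, of which 6 were higher and 1 lower at an unadjusted p under 0.05. The summed erythroid level was 3927, 2855 and 3830 CPM in WT and 6405, 5224 and 3415 CPM in Del(CBS1-5). Vegfa, the angiogenic growth factor, was at 116, 149 and 91.8 CPM in WT and at 67.8, 64.4 and 105 CPM in Del(CBS1-5), and 7 of 23 hypoxia and glycolysis genes were lower and 0 higher at an unadjusted p under 0.05. For Acan, Matn4, Vegfa and the erythroid sum, libraries 1 and 2 of Del(CBS1-5) lay outside the WT range and library 3 inside it. The proliferation genes had a median of 0.09, with 8 of 23 higher and 0 lower at an unadjusted p under 0.05. Ccnb2, a mitotic cyclin, was at 123, 128 and 138 CPM in WT and at 156, 170 and 149 CPM in Del(CBS1-5), without overlap and not called (log2 fold change 0.28 ± 0.07, edgeR adjusted p = 0.126). The skeletal muscle list had a median of -0.43 over 32 genes with summed levels of 176 to 231 CPM in WT and 168 to 211 CPM in Del(CBS1-5). The share of all genes tested at an unadjusted p under 0.05 was 5.97% higher and 7.1% lower. The part of cell composition in these values was not tested.

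**Figure D5:**
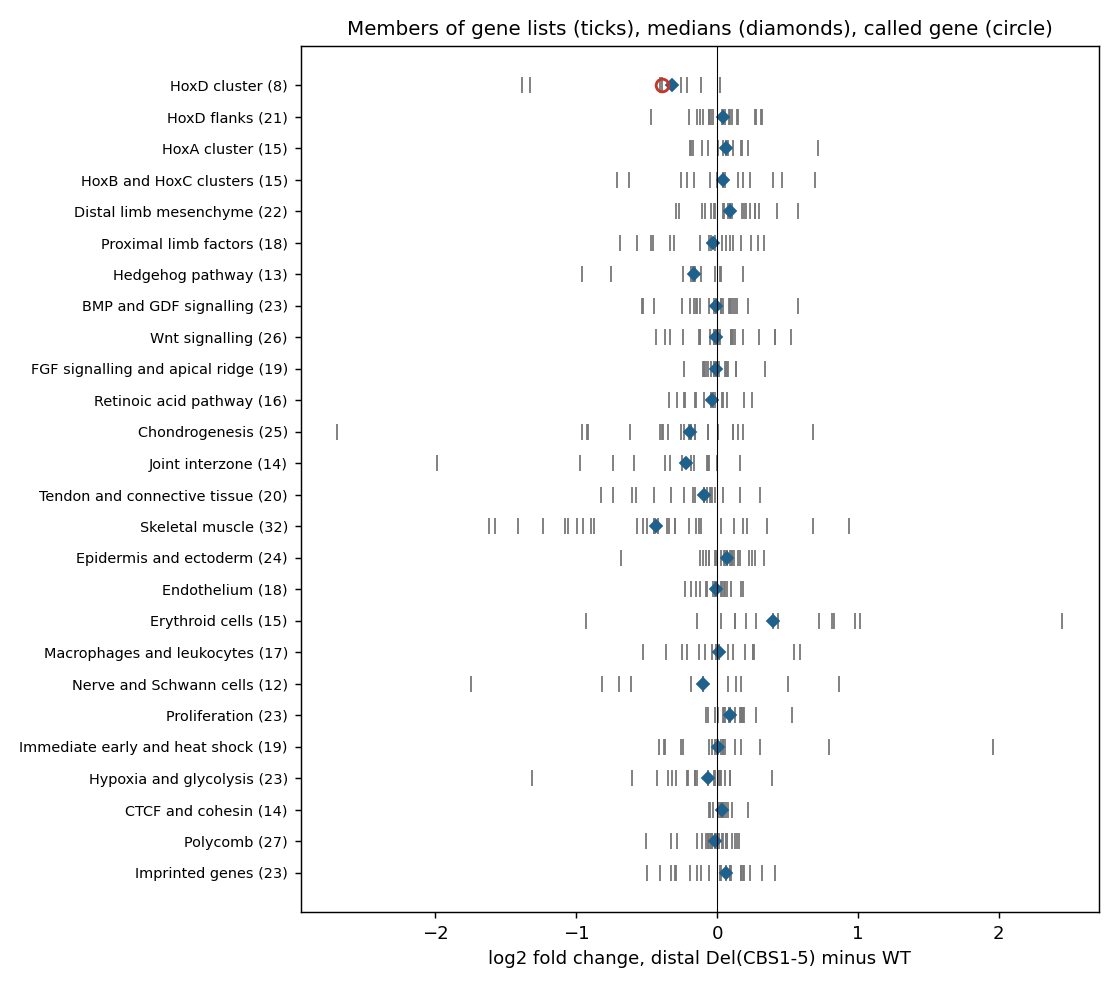
Log2 fold change of distal Del(CBS1-5) minus WT for tested members of each gene list (ticks), with the list median (diamond) and the called gene (circle); the number of tested members follows each name. The HoxD list has a median of -0.32 and holds the called gene, Hoxd10.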

How the data were processed

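The authors deposited whole-number read counts per Ensembl gene and Cufflinks FPKM values for 36 libraries, per the file headers; 0 columns were left without a sample. The submitters' processing notes list build mm10 and bedtools 2.27.1, Cufflinks 2.2.1, STAR 2.7.0 and cutadapt 1.16, with no roles. How reads were counted, strand included, was not given in the sources used here. The counts cover 50833 genes and the FPKM values 55052, and the 4222 genes with FPKM values alone lie on X, Y or M.

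Counts of the 18 distal libraries were fitted in 1 model with edgeR 4.0.16 (filterByExpr, TMM, glmQLFit, glmQLFTest) in R 4.3.3, and the tissue interaction over all 36. Calls were made at 0.05 after Benjamini-Hochberg adjustment across every gene in the fit. CPM were scaled by TMM over 36 libraries. Alternatives used DESeq2 1.42.0 and limma 3.58.1 (log2(FPKM + 1) and log2(FPKM + 0.1), genes with a group mean FPKM of at least 1). The fit was first tested on simulated data. Copies were sought with blastn 2.17.0 in GENCODE M21 transcripts. Members and lists were chosen with earlier results of these data known.

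Named were the Hoxd genes, members with a described role, and up to 12 called genes per direction (4 against Del(CBS1-4)) by fold change, averaging 50 or more counts in the group with more and without overlap of libraries, unnamed gene models passed over; 1 gene so named is not reported here. The deviations of every same-numbered distal and proximal pair correlated above 0.1: 0.177, 0.216 and 0.173 in Del(CBS1-5), and 0.493, 0.393 and 0.486 in WT. These libraries were therefore taken as pairs, but only in the block alternative of the interaction. The reported interaction fitted group means and left the pairing out. Replicates of each group differed beyond sampling noise (chi-square per degree of freedom 4.56 to 19.3). P-values rest on variation among embryos inside groups, pooled over all groups in the fit and not only those compared.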

Additional observations from a re-analysis of the deposited data

How the results depend on the processing

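Against WT, the 10 called genes became 126 with DESeq2, 633 with no filter on low counts, 3 in a fit of the compared groups alone, 4 and 5 with limma on log2(FPKM + 1) and log2(FPKM + 0.1), and 3 with the muscle score as a covariate. Leaving out 1 library gave 2 to 320. The Hoxd genes called went from 1 to 3 with no filter (Hoxd12, Hoxd10 and Hoxd4), and to 0 in the fit of the compared groups, with limma at either pseudocount, with the muscle score, and from 0 to 1 when 1 library was left out. RLE scaling, a stricter filter and sex as a covariate gave 10, 8 and 13 calls, with Hoxd10 among them. WT and mutant libraries share only a number: same-numbered deviations correlated at 0.0293, -0.0141 and -0.0572, and the replicate block gave 6 called genes and 0 Hoxd genes. Hoxd8 turned to -0.19 without Del(CBS1-5) replicate 2 and to -0.35 without WT replicate 2, in a range of -0.35 to 0.39 when 1 library was left out. Against Del(CBS1-4), the 2563 called genes became 89 with the muscle score and 701 to 3083 when 1 library was left out. The interaction gave 94 calls with no filter and 0 in every other setting run, the block of distal and proximal libraries included. Of the alternatives for single genes, 204 kept direction and call, 54 lost the call, 2 gained it and 2 reversed. The cause of these changes was not tested. With 3 libraries a group, Hoxd3, Hoxd4 and Hoxd8, at 3 to 138 counts a library, had intervals too wide to show a small difference.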

Other observations

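Several gene copies were split inside WT as well as between the groups. Rps15a-ps8, a copy of a ribosomal protein gene, was at 5.40, 6.01 and 0.0619 CPM in the distal WT libraries, at 0.0683, 0.207 and 0 CPM in Del(CBS1-5), and at 4.03 to 8.07 CPM in Del(CBS1-4). Nudc-ps1 was at 5.74, 5.59 and 0.0619 CPM in WT, at 0, 0.207 and 0.0732 CPM in Del(CBS1-5), and at 5.02 to 5.44 CPM in Del(CBS1-4). In both, as in Gm4864, WT library 3 was near 0 together with the Del(CBS1-5) libraries. Eif3j2 was at 0, 5.87 and 4.39 CPM in WT, so there WT library 1 was at 0, beside 0.138 to 0.205 CPM in Del(CBS1-5) and 5.51 to 6.90 CPM in Del(CBS1-4).

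On chromosomes X, Y and M, which only the FPKM values cover, 445 genes were tested with limma on log2(FPKM + 1) against WT and 0 were called.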
